A study of Mus musculus with 8 samples.

Results

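The 9 complement genes described here are *C1qa*, *C1qb*, *C1qc* and *C4b* of the classical pathway, *C3*, *Cfb* and *Cfp* of the alternative pathway, and the receptors *C3ar1* and *C5ar1*. They were taken as a list of named complement components, regulators and receptors from the 20308 gene symbols of the count files. RNA was sequenced from CD11b+ cells of 4 control and 4 CSF1 OE mice, with 1 library per mouse. The mice were F1 animals of a cross of C57Bl/6 and CD1, aged 14 or 15 postnatal days. CSF1 OE mice carry a transgene, driven by the TRE/tTA system, for the secreted form of colony-stimulating factor 1 (CSF1) in a subset of GFAP+ cells, and the controls are labelled as controls for the overexpression. Cells were pulled down with magnetic beads against CD11b from the right brain hemisphere, so the transgene was active in cells other than those the beads target. Astrocyte markers were nonetheless detected in every library. *Csf1* in these libraries does not check the genotype. The comparison asks how a rise of CSF1 around microglia, the resident macrophages of the brain, goes with their complement transcripts.

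Complement is a cascade of plasma and tissue proteins that marks targets for removal. In the classical pathway, C1q binds a target and its attached proteases split C4 and C2. In the alternative pathway, factor B joins a split product of C3 and is itself split to form a convertase that deposits more C3, while properdin stabilises this convertase. All routes meet at C3, whose split products C3a and C3b act through receptors and as a tag. In the brain, microglia are the main source of C1q, and C1q and C3 are known for tagging synapses that microglia then remove during development.

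Total counts ranged from 12053280 to 15475488 per library. Levels are given as CPM, which are counts brought to a common library size, here with TMM factors that correct for differences in composition between libraries. The summed CPM of 8 microglia markers, of which *Csf1r* was the most abundant, ranged from 20288 to 35873 in control mice and from 26191 to 36422 in CSF1 OE mice, so the labelled cell type was present in every library. Markers of other cells were also present. Oligodendrocyte markers summed to between 2819 and 5924 CPM in control mice and between 1542 and 4835 CPM in CSF1 OE mice, and border macrophage markers to between 1596 and 2523 CPM and between 1273 and 1895 CPM. Choroid plexus markers, led by *Ttr*, summed to between 3733 and 5051 CPM in control mice and between 1469 and 5846 CPM in CSF1 OE mice. Astrocyte markers summed to between 223 and 497 CPM and between 179 and 494 CPM. Control mouse 1934 had the lowest microglia sum and the highest control sums for oligodendrocytes (5924 CPM) and endothelial cells (1106 CPM). In such bulk libraries, fewer cells of a type and less RNA per cell cannot be told apart.

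Of the 9 members, *Cfb* rose in CSF1 OE mice, by 6.28-fold, and the other 8 did not pass the test. All 9 were abundant enough to be tested. A gene was called at an adjusted p under 0.05 in edgeR's quasi-likelihood test, with Benjamini-Hochberg adjustment over all 13407 genes tested, and a fold change below 0.7 or above 1.43. By this rule 1 of 9 members was called, beside 0.44% of all genes tested in either direction and 0.388% called higher. The log2 fold change was positive for 8 members and negative for *Cfp*, with a median of 0.17, beside -0.034 over all genes. The unadjusted p was under 0.05 for 4 members (*Cfb*, *C4b*, *C3* and *C3ar1*), beside 16.5% of all genes. The values of both genotypes did not overlap for 3 members (*Cfb*, *C4b* and *C3*), beside 10.3% of all genes.

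**Figure D1:**
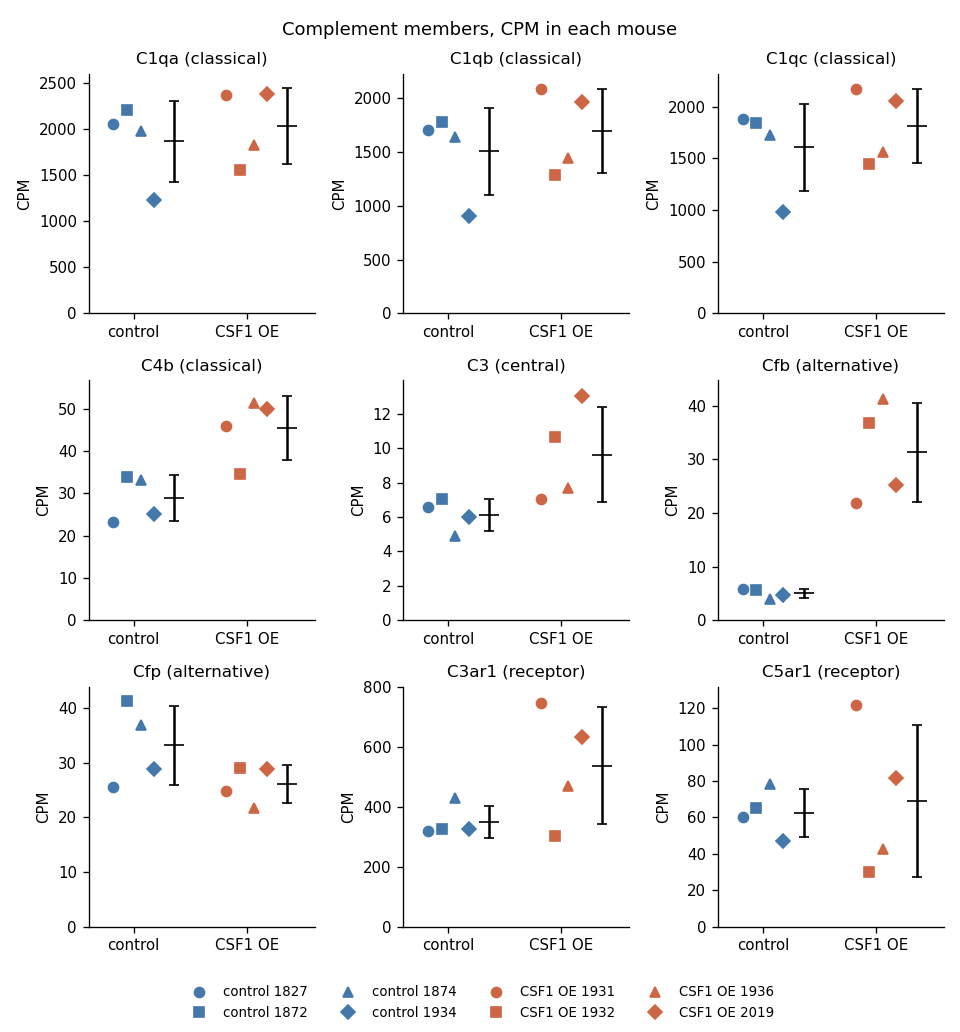
CPM of the 9 complement members in each mouse, with control mice in blue and CSF1 OE mice in orange, and the mean and SD (n = 4 per genotype) as black bars beside the points. For *Cfb* the 4 CSF1 OE mice lie between 21.9 and 41.2 CPM and the control mice at 5.71 CPM or below, whereas the C1q chains span similar ranges in both genotypes.

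Factor B, the protease of the alternative pathway convertase, is encoded by *Cfb* (ENSMUSG00000090231.10, minus strand, chr17:34856374-34862518 in GRCm38). Its level was 5.71, 5.60, 4.01 and 4.61 CPM in control mice 1827, 1872, 1874 and 1934. In CSF1 OE mice 1931, 1932, 1936 and 2019 it was 21.9, 36.9, 41.2 and 25.2 CPM. The lowest CSF1 OE mouse was thus well above the highest control mouse, and the spread was wider among CSF1 OE mice (31.3 ± 9.21 CPM, SD, n = 4) than among control mice (4.98 ± 0.817 CPM). These levels rest on 53 to 85 counts in control libraries and 267 to 605 counts in CSF1 OE libraries. The log2 fold change was 2.65 with a standard error of 0.23 (edgeR, adjusted p = 0.00545). It stayed between 2.49 and 2.79 over 16 alternatives of the analysis, with adjusted p from 1.62e-22 to 0.0392 across edgeR, DESeq2 and limma.

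*Cfb* was also set beside cell type markers. Relative to 1000 CPM of microglia markers, *Cfb* was at 0.162, 0.156, 0.129 and 0.227 CPM in control mice and at 0.747, 1.40, 1.57 and 0.693 CPM in CSF1 OE mice, again without overlap. With the summed microglia markers as a covariate, the log2 fold change was 2.64 (edgeR, adjusted p = 0.00593). Monocyte markers, 5 of 6 in the files and led by *Vcan*, summed to between 38.3 and 53.7 CPM in control mice. In CSF1 OE mice they summed to between 38.9 and 78.5 CPM, highest in mouse 1936, which also had the highest *Cfb*. Among the CSF1 OE mice, mouse 1936 was also highest for endothelial, mural, astrocyte, oligodendrocyte, oligodendrocyte precursor and choroid plexus markers. The neutrophil sum, also over 5 of 6 markers, was between 38.5 and 89.6 CPM in control mice and between 12.7 and 192 CPM in CSF1 OE mice, highest in mouse 2019. All of these lists overlapped between genotypes, and their part in the *Cfb* values was not tested.

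*Cfb* lies in the class III region of the major histocompatibility complex on chromosome 17, beside *C2*, the gene of the classical pathway protease that is related to factor B. The gap between *Cfb* and *C2*, both on the minus strand, is 85 bases in the GENCODE annotation. On its other side, *Cfb* borders *Nelfe*, which lies on the plus strand and ends at base 34856372. Libraries of this kind carry no strand. *Nelfe* had a log2 fold change of 0.21 (SE 0.097, edgeR adjusted p = 0.312), and its genotypes overlapped. *C2* was at 19.9, 24.5, 23.2 and 20.6 CPM in control mice and at 17.1, 27.0, 21.6 and 24.3 CPM in CSF1 OE mice, with full overlap (log2 fold change 0.03, SE 0.15, edgeR adjusted p = 0.935). Within 100 kb of *Cfb*, a window chosen after the values were seen, lie 11 other genes of the count files, and 9 were tested. Genes annotated there but absent from the count files were not counted. Of the 9 tested, none was called, none separated the genotypes, and their log2 fold changes ran from -0.41 to 0.21 with a median of 0.029. The member *C4b*, 112 kb from *Cfb*, lies just outside this window. Its genotypes did not overlap (log2 fold change 0.66, SE 0.17, edgeR adjusted p = 0.108). The 5 genes whose log2 CPM followed *Cfb* most closely over the 8 libraries were *Rpl26* (Pearson r = 0.988), *Rps3a1* (0.987), *Rps4x* (0.987), *Rps14* (0.983) and *Eif3m* (0.983). The first 4 encode ribosomal proteins and *Eif3m* a subunit of a translation initiation factor. All 8 points include the step between genotypes that *Cfb* shows, and after the genotype means were removed the same correlations were 0.757, 0.714, 0.747, 0.702 and 0.784.

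Properdin, the plasma protein that stabilises the convertase formed by factor B, is encoded by *Cfp* (ENSMUSG00000001128.7, minus strand, chrX:20925454-20931555). Its level was 25.6, 41.3, 37.0 and 28.9 CPM in control mice and 24.9, 29.0, 21.7 and 28.9 CPM in CSF1 OE mice. Only 2 CSF1 OE mice were below all control mice, and *Cfp* was the sole member with a negative log2 fold change (-0.34, SE 0.17, edgeR adjusted p = 0.345). *Cfb* and *Cfp* were also compared within each library, as the log2 ratio of their CPM, which does not depend on the scaling of a library. The ratio of *Cfb* to *Cfp* was -2.14, -2.85, -3.16 and -2.61 in control mice and -0.18, 0.34, 0.92 and -0.20 in CSF1 OE mice. Every CSF1 OE mouse was above every control mouse, with a difference of 2.91 on the log2 scale (two-sided exact permutation test, p = 0.0286, adjusted p = 0.0571 over the 6 ratios). With 4 mice against 4 there are 70 assignments and 0.0286 is the smallest p they can give, so a ratio could pass 0.05 after adjustment only where at least 4 of the 6 reached that minimum.

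C3, the protein at which all pathways meet, is encoded by *C3* (ENSMUSG00000024164.15, minus strand, chr17:57203970-57228136). Its level was low in these cells, at 6.58, 7.05, 4.91 and 5.97 CPM in control mice and 7.06, 10.7, 7.70 and 13.01 CPM in CSF1 OE mice. The genotypes did not overlap, although the lowest CSF1 OE mouse (7.063 CPM) and the highest control mouse (7.055 CPM) were nearly equal. Between 65 and 147 counts stood behind each value. A log2 fold change of 0.64 with a standard error of 0.23 did not pass (edgeR, adjusted p = 0.214). *C3* was highest in CSF1 OE mouse 2019, where the neutrophil sum (192 CPM) and the microglia sum (36422 CPM) were highest too. Among the CSF1 OE mice, mouse 2019 was also highest for border macrophage markers (1895 CPM) and for T, NK and B cell markers. The part of these in the *C3* values was not tested. The ratio of *Cfb* to *C3* was -0.20, -0.33, -0.29 and -0.36 in control mice and 1.61, 1.78, 2.40 and 0.95 in CSF1 OE mice. Both transcripts were thus at similar CPM in control mice, and *Cfb* was above *C3* in every CSF1 OE mouse, a difference of 1.98 on the log2 scale (two-sided exact permutation test, p = 0.0286, adjusted p = 0.0571).

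Promoter sequence is shown for *C3*, at the centre of the cascade, and for *Cfp*, the alternative pathway member with the smaller change. The RefSeq promoter table for GRCm38.p6 matched 6 of the 9 members, all but *Cfb*, *C1qa* and *C4b*, and each window holds the 250 bases before the annotated start. Stretches that overlap an annotated exon were left out of what is printed. The first pair belongs to C3 and properdin, from chr17:57228137-57228386 and chrX:20931556-20931805, both minus strand and written 5′ to 3′.
C3: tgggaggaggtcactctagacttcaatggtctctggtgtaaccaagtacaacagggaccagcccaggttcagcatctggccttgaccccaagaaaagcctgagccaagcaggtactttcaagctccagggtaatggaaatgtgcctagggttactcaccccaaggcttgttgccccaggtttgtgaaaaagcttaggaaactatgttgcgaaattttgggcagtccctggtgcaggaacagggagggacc
Cfp: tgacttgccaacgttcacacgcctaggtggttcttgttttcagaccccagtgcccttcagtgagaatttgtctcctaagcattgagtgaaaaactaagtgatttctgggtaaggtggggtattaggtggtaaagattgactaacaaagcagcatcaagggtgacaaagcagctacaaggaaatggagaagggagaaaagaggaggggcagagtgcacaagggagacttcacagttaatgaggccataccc
Both strands were searched for the core of the interferon-stimulated response element (GAAANNGAAA), the gamma-activated site (TTCNNNGAA) and the NF-kB consensus. Of all 32851 promoters of this length, 2.98%, 7.02% and 3.9% hold them. Neither the *C3* nor the *Cfp* window held any of the 3, so no base is in capitals. That says only that these letters are not in these windows.

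The 3 chains of C1q, the recognition molecule of the classical pathway, were by far the most abundant members and did not differ detectably between genotypes. *C1qa*, *C1qb* and *C1qc* lie in 1 cluster of 18.675 kb on chromosome 4, all on the minus strand (chr4:136895917-136898803, chr4:136880129-136886187 and chr4:136889804-136893065). *C1qa* was at 2051, 2208, 1976 and 1225 CPM in control mice and at 2362, 1549, 1823 and 2377 CPM in CSF1 OE mice. *C1qb* was at 1707, 1778, 1643 and 904 CPM in control mice and at 2085, 1292, 1443 and 1969 CPM in CSF1 OE mice. *C1qc* was at 1878, 1843, 1726 and 986 CPM in control mice and at 2173, 1446, 1566 and 2061 CPM in CSF1 OE mice. For all 3 chains control mouse 1934 was the lowest library and CSF1 OE mice 1931 and 2019 were above 1932 and 1936. The log2 fold changes were 0.12 (SE 0.22), 0.17 (SE 0.24) and 0.17 (SE 0.23), with adjusted p from edgeR of 0.798, 0.749 and 0.732. Without control mouse 1934 they were -0.022, 0.0039 and 0.010.

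The chains moved together from mouse to mouse. *C1qa* made up 35.7% to 39.3% of the summed C1q CPM, *C1qb* 29.0% to 31.5% and *C1qc* 31.6% to 33.7% over the 8 libraries. Summed C1q was 4981 ± 1259 CPM in control mice and 5536 ± 1153 CPM in CSF1 OE mice (SD, n = 4 each). It also followed the microglia markers, of which mouse 1934 had the least. As a share of the microglia marker sum, C1q was 16.0%, 16.2%, 17.2% and 15.4% in control mice and 22.6%, 16.3%, 18.5% and 17.6% in CSF1 OE mice. Mouse 1934 was thus close to the other control mice on this scale, CSF1 OE mouse 1931 was the highest, and the genotypes overlapped. With the microglia markers as a covariate, the log2 fold changes of the 3 chains were 0.17, 0.24 and 0.24 (edgeR, adjusted p = 0.322, 0.239 and 0.203). Among the genes most like the mean of the chains over the 8 libraries were *Ptpn6* (Pearson r = 0.993), *Aldh3a2* (0.992), *Trpv2* (0.990) and *Hps4* (0.990), and with genotype means removed these were 0.992, 0.991, 0.990 and 0.990. The points share the library and its microglia content, and 1 of them is mouse 1934. Here too the genes were picked for a high r among all genes tested.

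**Figure D2:**
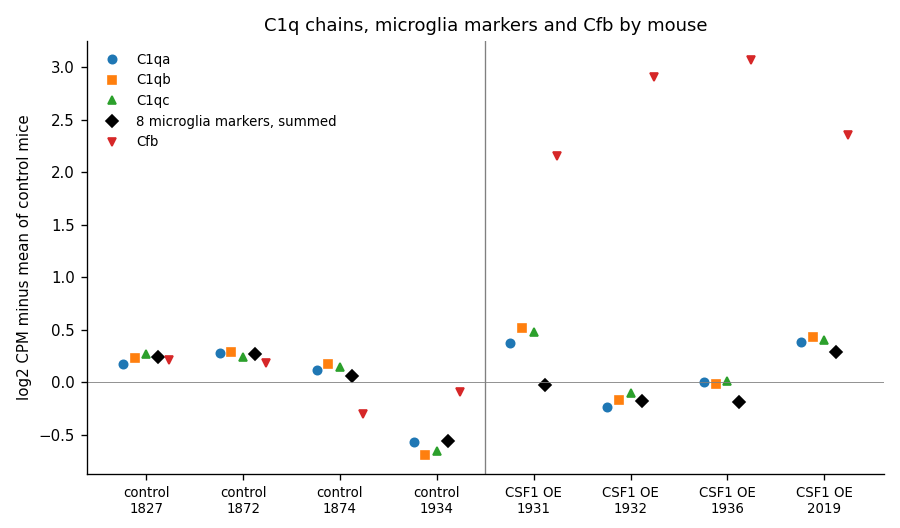
The log2 CPM of the 3 C1q chains, of 8 summed microglia markers and of *Cfb* in each mouse, each minus its own mean over the 4 control mice. The C1q chains lie close together in every mouse and are lowest with the microglia markers in control mouse 1934, whereas *Cfb* stands apart from both in all 4 CSF1 OE mice.

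Since the chains move together, the promoter stretches of *C1qb* (chr4:136886201-136886450) and *C1qc* (chr4:136893066-136893164) are shown together, both minus strand and 5′ to 3′. The capitals mark a match on the opposite strand to GAGGAAG, a core bound by the myeloid factor PU.1, which was searched for after the data were seen.
C1qb: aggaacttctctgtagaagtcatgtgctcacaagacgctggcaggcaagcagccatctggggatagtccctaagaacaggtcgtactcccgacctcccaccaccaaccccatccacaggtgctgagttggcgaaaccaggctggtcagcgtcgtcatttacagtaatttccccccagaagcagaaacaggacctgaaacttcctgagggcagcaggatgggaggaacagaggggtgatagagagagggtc
C1qc: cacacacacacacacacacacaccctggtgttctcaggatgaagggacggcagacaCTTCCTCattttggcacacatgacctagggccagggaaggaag
The PU.1 core is in 10.6% of all promoters and in 1 of the 6 matched members, *C1qc*, at bases 194 to 188 before the start. The *C1qc* window also held 1 match to the NF-kB consensus, on the plus strand at bases 41 to 32 before the RefSeq start. That match is outside the printed stretch and within the GENCODE span of *C1qc*, which reaches up to that stretch. None of the 6 matched members held the interferon-stimulated response element core or the gamma-activated site.

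C4, which is split by the C1 proteases after C1q has bound, is encoded in the mouse by *C4b* (ENSMUSG00000073418.4, minus strand, chr17:34728380-34743882), 112 kb from *Cfb*. Its level was 23.2, 34.0, 33.1 and 25.1 CPM in control mice and 46.0, 34.5, 51.5 and 49.9 CPM in CSF1 OE mice. The genotypes did not overlap, with CSF1 OE mouse 1932 just above the highest control mouse and the other 3 well above it. The difference was 0.66 on the log2 scale with a standard error of 0.17 and did not pass after adjustment (edgeR, adjusted p = 0.108). It passed under 3 alternatives, at an adjusted p of 0.0133 with DESeq2, 0.0340 in edgeR with a term that separates animal numbers 1931 to 1936 from the rest, and 0.0479 with the microglia markers as a covariate in edgeR. Those fits called 3.07%, 9.5% and 3.24% of all genes. *C4b* has a near-identical paralog, *C4a*, which was not analysed here as a gene of its own. The values printed for *C4b* may include reads of *C4a*, and how many is not known, so both the level and the difference of *C4b* are uncertain to that extent.

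*C4b* was also compared with other members within each library. The ratio of *C4b* to *C1qa* was -6.46, -6.02, -5.89 and -5.60 in control mice and -5.68, -5.48, -5.14 and -5.57 in CSF1 OE mice, a difference of 0.52 on the log2 scale (two-sided exact permutation test, p = 0.0571, adjusted p = 0.0686). Here control mouse 1934, with the lowest *C1qa*, fell among the CSF1 OE mice. The ratio of *Cfb* to *C4b* was -1.99, -2.57, -3.00 and -2.41 in control mice and -1.06, 0.09, -0.32 and -0.98 in CSF1 OE mice. *Cfb* thus gained on *C4b* in every CSF1 OE mouse, by 1.93 on the log2 scale (exact permutation test, p = 0.0286, adjusted p = 0.0571). *C4b* and *C3* differed in fold change by far less than their spread between mice, since the ratio of *C4b* to *C3* was higher by 0.05 (SD 0.39 in control and 0.53 in CSF1 OE mice, exact permutation test, p = 0.886). The genes most like *C4b* over the 8 libraries were *Pyhin1* (Pearson r = 0.963), *Spop* (0.958), *Plekhf2* (0.949), *Plgrkt* (0.945) and *Abcf2* (0.943). With genotype means removed these were 0.894, 0.902, 0.862, 0.838 and 0.819. They too were picked for the highest r of all genes tested, which favours high values. *Pyhin1* was low, at a mean of 2.40 CPM in control mice and 5.47 CPM in CSF1 OE mice.

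**Figure D3:**
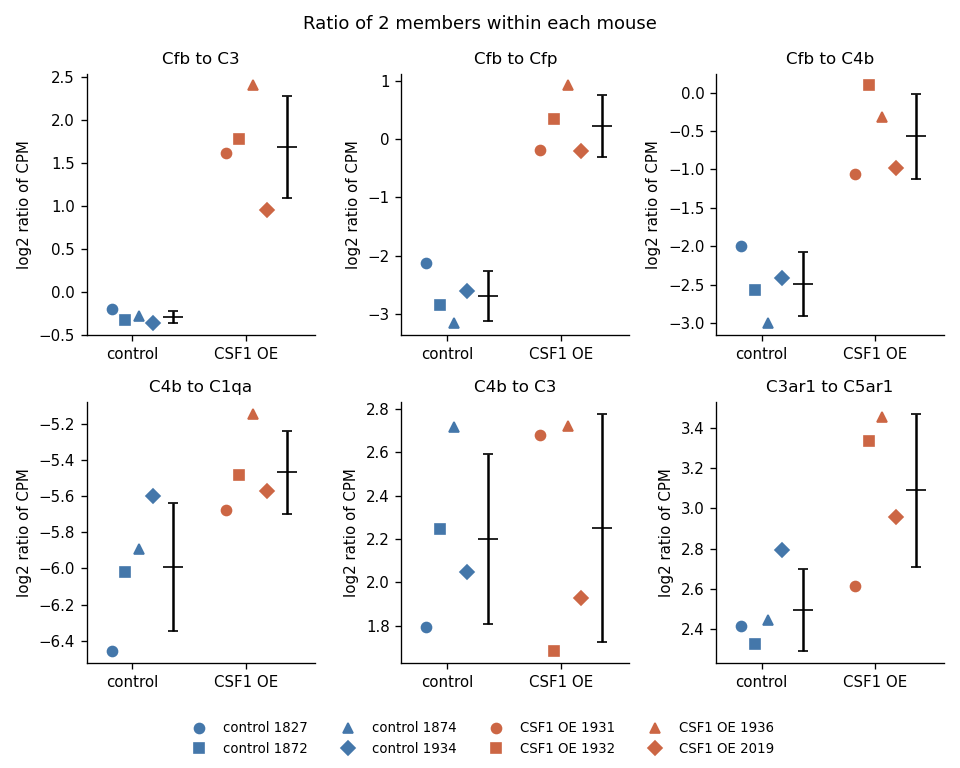
Log2 ratio of the CPM of 2 members within each mouse for the 6 pairs compared, with the mean and SD (n = 4 per genotype) as black bars. The 3 ratios with *Cfb* as the numerator separate the genotypes, with differences of 1.98, 2.91 and 1.93, and the other 3 overlap.

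The receptors for the split products C3a and C5a are G protein-coupled receptors of myeloid cells. *C3ar1* (ENSMUSG00000040552.8, minus strand, chr6:122847138-122856161) was at 320, 327, 429 and 326 CPM in control mice and at 749, 303, 469 and 634 CPM in CSF1 OE mice. Mice 1931, 1936 and 2019 were above all control mice and mouse 1932 was below them all. This gave a log2 fold change of 0.62 with a standard error of 0.25, which did not pass (edgeR, adjusted p = 0.266). *C5ar1* (ENSMUSG00000049130.6, minus strand, chr7:16246743-16259540) was at 60.0, 64.9, 78.6 and 46.8 CPM in control mice and at 122, 30.0, 42.7 and 81.4 CPM in CSF1 OE mice. CSF1 OE mice lay on both sides of the control mice, with 2 below and 2 above them all, and the log2 fold change was 0.14 with a standard error of 0.39 (edgeR, adjusted p = 0.874). Without CSF1 OE mouse 1931 it was -0.28. Mouse 1931, with the highest *C5ar1* and *C3ar1*, had the lowest neutrophil sum of all 8 libraries (12.7 CPM). The part of neutrophils or other cells in the receptor values was not tested.

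Within each library, *C3ar1* exceeded *C5ar1* by 2.41, 2.33, 2.45 and 2.79 on the log2 scale in control mice and by 2.62, 3.33, 3.45 and 2.96 in CSF1 OE mice. Mouse 1931 was the only CSF1 OE mouse within the range of the control mice, and the difference of 0.59 did not pass (two-sided exact permutation test, p = 0.0571, adjusted p = 0.0686). For *C5ar1*, the receptor with the smaller change, the stretch before the RefSeq start is chr7:16259339-16259512 on the minus strand, written 5′ to 3′. It lies within the GENCODE span of *C5ar1*, which reaches to base 16259540, so by that annotation it is inside the gene, outside exons. The stretch holds none of the 4 motifs searched.
C5ar1: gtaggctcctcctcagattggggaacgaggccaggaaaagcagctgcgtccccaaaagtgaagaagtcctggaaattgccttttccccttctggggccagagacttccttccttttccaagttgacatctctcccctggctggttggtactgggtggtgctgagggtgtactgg

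Per length, the members spanned 3 orders of magnitude. In control mice the mean level was 1793 ± 421 CPM per kb of exon for *C1qa*, 1386 ± 373 for *C1qb*, 833 ± 217 for *C1qc*, 81.4 ± 12.2 for *C3ar1* and 24.4 ± 5.10 for *C5ar1*. Below these were *Cfp* at 19.1 ± 4.15 CPM per kb, *C4b* at 5.07 ± 0.963, *Cfb* at 1.76 ± 0.289 and *C3* at 1.19 ± 0.180 (SD, n = 4). Ranges over the control mice overlapped between *C1qa* and *C1qb*, between *C1qb* and *C1qc*, and between *C5ar1* and *Cfp*. The other neighbours in this order did not overlap. In CSF1 OE mice *Cfb*, at 11.1 ± 3.26 CPM per kb, moved above *C4b* at 7.99 ± 1.35, although the ranges of these genes overlapped, as did those of *Cfb* and *Cfp* (15.1 ± 2.03). The order of the other members was the same in both genotypes, and *C3* was lowest in each.

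**Figure D4:**
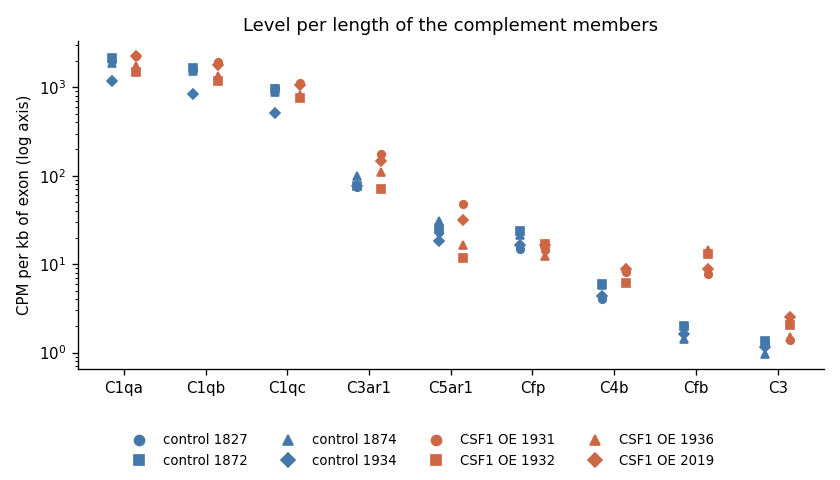
CPM per kb of exon on a log axis for the 9 members, in the order of their mean in control mice, with 1 point per mouse. *Cfb* is the member whose CSF1 OE mice lie clearly above its control mice, from below *C4b* in the controls to a range that overlaps with that of *C4b* in CSF1 OE mice.

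The rest of the pathway was examined with 47 other complement genes, ordered by role. The files hold 45 of them, and 24 were abundant enough to be tested. *Itgax* was called higher and no gene was called lower, beside 0.44% of all genes called in either direction. The log2 fold change was positive for 12 and negative for 12, with a median of -0.016, the unadjusted p was under 0.05 for 4 of the 24, beside 16.5% of all genes, and 2 of the 24 separated the genotypes, beside 10.3%. Both counts are near the shares over all genes. Of the 21 genes not tested, 5 had no count in any library, and none of the others exceeded 1.50 CPM. They include all 7 terminal components, which form the membrane attack complex, and *Cfd*, the protease that splits factor B.

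*Itgax* encodes CD11c, the alpha chain of complement receptor 4, which binds a split product of C3b, and is also a marker of activated microglia and dendritic cells. It was at 10.8, 12.1, 11.3 and 6.92 CPM in control mice and at 51.4, 28.9, 28.5 and 24.5 CPM in CSF1 OE mice. All CSF1 OE mice were above all control mice, and mouse 1931 was the highest (log2 fold change 1.70, SE 0.27, edgeR adjusted p = 0.0431). This call is near the threshold. It was lost without control mouse 1872, 1874 or 1934, or without CSF1 OE mouse 1931, 1932 or 1936, each of which left 0 of the 24 genes called. The common chain *Itgb2* had a log2 fold change of 0.36 (SE 0.22, edgeR adjusted p = 0.439). *Itgam*, the alpha chain of complement receptor 3, encodes the CD11b used to capture the cells and had 0.10 (SE 0.17, edgeR adjusted p = 0.786). *Cd93*, a receptor of endothelial and myeloid cells, had the most negative value among the receptors (-0.60, SE 0.31, edgeR adjusted p = 0.378), and its highest level, 234 CPM, was in control mouse 1934, where endothelial markers were highest. The part of endothelial cells in the *Cd93* values was not tested.

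Among the other classical components 3 of 6 were tested and none was called. *C1ra*, a protease of the C1 complex, was at 5.24, 4.22, 4.99 and 3.84 CPM in control mice and at 6.41, 5.81, 7.22 and 6.82 CPM in CSF1 OE mice. The genotypes did not overlap, but the difference did not pass (log2 fold change 0.52, SE 0.17, edgeR adjusted p = 0.195). *C1s*, its partner protease, had a log2 fold change of -0.73 (SE 0.41, edgeR adjusted p = 0.407) at 2.27 CPM or less. In the lectin pathway 3 of 8 genes were tested, from *Fcna*, a ficolin (log2 fold change 0.08, SE 0.14), to *Masp1*, a lectin pathway protease (-0.54, SE 0.36), and none was called. *Masp1* was low, at 2.15 CPM or less.

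Regulators showed no called change either. Of the soluble regulators 6 of 9 were tested, with 3 positive and 3 negative log2 fold changes, the most negative being -0.56 (*Clu*, clusterin, SE 0.31). Of the membrane regulators 6 of 8 were tested, with 2 positive and 4 negative values from 0.44 (*Cd46*, a cofactor for C3b cleavage, SE 0.30) to -0.82 (*Csmd1*, a complement control protein of neurons, SE 0.58). *Cd46* was low, at 1.62 CPM or less. *Csmd1* was highest in control mouse 1934 (5.62 CPM), which also had the highest neuron marker sum (202 CPM). Among the CSF1 OE mice, *Csmd1* was highest in mouse 1936 (2.52 CPM) and the neuron sum in mouse 1932 (118 CPM). The part of neurons in the *Csmd1* values was not tested.

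**Figure D5:**
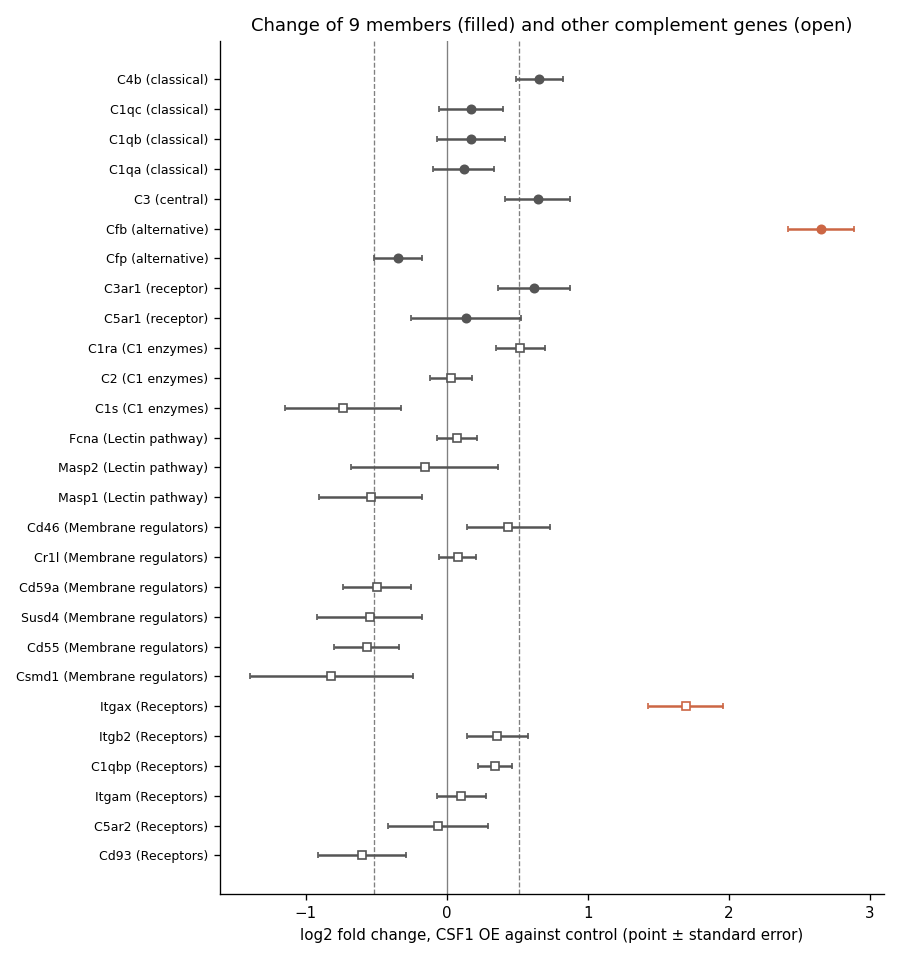
Log2 fold change of CSF1 OE against control mice with its standard error for the 9 members (filled circles) and the other complement genes tested, apart from soluble regulators (open squares), with called genes in orange and dashed lines at the fold thresholds of 0.7 and 1.43. *Cfb* at 2.65 and *Itgax* at 1.70 are the called genes. All members but *Cfp* lie above 0, and the other complement genes scatter on both sides of it.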

How the data were processed

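CD11b+ brain cells of 8 mice, 4 per genotype, gave 1 RNA library each. Groups and animal numbers came from the library titles. Whether the mice came from separate litters is not given in the sources used here. Per the paper's methods, the authors sequenced TruSeq libraries with paired reads in 1 lane, mapped them with Bowtie 1.0.0 and made expected counts per gene with RSEM 1.2.7. The submitters' processing notes also name bcl2fastq 1.8.4 and mm10. The expected counts were deposited without normalization and were rounded here. A second deposited table, a signal on the scale of counts, holds the authors' values divided by 1 size factor per library and served as an alternative only.

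The main test was the quasi-likelihood test of edgeR 4.0.16 under R 4.3.3 (TMM, glmQLFit, glmQLFTest), two-sided, on the 13407 genes kept by filterByExpr. CPM used TMM-scaled library sizes, and log2 CPM a prior count of 2. The common biological coefficient of variation was 0.228. The chi-square per gene between libraries was at least 15.1 over 28 pairs, so none was a copy. The log2 ratios were compared by two-sided exact permutation over 70 assignments, adjusted over 6 ratios by Benjamini-Hochberg. Coordinates and exon lengths are from GENCODE M21 (GRCm38), and promoters from RefSeq (GRCm38.p6). Methods were tested on simulated data. The counts simulated for edgeR had a biological coefficient of variation below 0.228, so that test was easier than these data.

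Alternatives were DESeq2 1.42.0, upper-quartile factors, a robust prior, 2 other filters (any count, and a minimum of 10 counts per library), a term for animal numbers 1931 to 1936, limma 3.58.1 on the second deposited table (log2 after a pseudocount of 1), each mouse left out, no fold threshold, an adjusted p under 0.01 and, for ratios, a prior count of 0.5 and the authors' values. A covariate for summed microglia markers was added after seeing the data. The paper's EBSeq was not used here.

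Members and lists were chosen with earlier results of these data known. Named are all members, called pathway genes, the largest rise and fall in each role, and the 5 genes most correlated with *Cfb*, with *C4b* and with the C1q mean. Some genes that this rule names are not reported here.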

Additional observations from a re-analysis of the deposited data

Results flagged for a closer look

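In 3 of the 18 groups of 4 mice (9 members in 2 genotypes), 1 mouse stood far from the other 3 by Dixon's criterion, where chance gives about 1 in 20, or 0.9 groups. In control mouse 1934, *C1qb* was at 904 CPM and *C1qc* at 986 CPM, the lowest of the control mice. The gap to the next mouse was 0.846 and 0.830 of the range of the control mice. *C1qa* was lowest in the same mouse without passing the criterion. That mouse also had the lowest microglia marker sum (20288 CPM) and the highest control sums for 9 of the 13 marker lists, among them oligodendrocytes and endothelial cells. The part of this in the C1q values was not tested. In control mouse 1874, *C3ar1* was at 429 CPM, above the other control mice by 0.943 of their range.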

How the results depend on the processing

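*Cfb* was called in every alternative. The number of members called was 2 (*Cfb* and *C4b*) with DESeq2, with the term for animal numbers and with the microglia covariate, and 1 without each mouse in turn (range 1 to 1). In those 3 fits the log2 fold change of *C4b* was 0.66, 0.77 and 0.67 (adjusted p = 0.0133, 0.0340 and 0.0479 in DESeq2, edgeR and edgeR). The number of other pathway genes called was 0 with upper-quartile factors and at an adjusted p under 0.01, 4 with the term for animal numbers (*Serping1*, *Itgax*, *Itgb2* and *Cd93*), 2 with the microglia covariate (*Itgax* and *Cd93*), and from 0 to 1 without each mouse. The log2 fold change of *C5ar1* was -0.042 with limma. Without each mouse it ran from -0.28 to 0.39 for *C5ar1*, from -0.022 to 0.23 for *C1qa*, from 0.0039 to 0.28 for *C1qb* and from 0.010 to 0.27 for *C1qc*. Over the same fits the ratio differences ran from 1.74 to 2.22 for *Cfb* to *C3*, 2.68 to 3.10 for *Cfb* to *Cfp*, 1.71 to 2.09 for *Cfb* to *C4b*, 0.37 to 0.66 for *C4b* to *C1qa*, -0.10 to 0.24 for *C4b* to *C3* and 0.47 to 0.75 for *C3ar1* to *C5ar1*. The first 3 had an adjusted p of 0.0429 in the exact permutation test without control mouse 1934 or CSF1 OE mouse 1931, as more ratios then reached the smallest p. *C4b* to *C1qa* reached it without mouse 1934, and *C3ar1* to *C5ar1* without mouse 1931. For the other changes the cause was not tested.

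No paired analysis was possible because the genotypes share no animal number. The term for animal numbers sets 1 control and 3 CSF1 OE mice against 3 controls and 1 CSF1 OE mouse, so it overlaps with genotype. Under it the C1q chains had log2 fold changes of 0.42, 0.52 and 0.50 (edgeR, adjusted p = 0.148, 0.132 and 0.124). Summing *C4a* and *C4b* was planned and not run, since no separate value of *C4a* was used here, and *C4b* may include its reads. Low counts limit *C3* and *Cfb* in control mice.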
